A study of Mus musculus with 8 samples.

Results

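The basal and myoepithelial programme of the mammary gland was followed here through 35 listed genes in 8 primary mammary tumours of transgenic mice of the inbred FVB strain. A gene was read from the array probe that carries its symbol and no other, and where several such probes existed, from the one with the highest mean over the tumours. This gave values for 34 of the 35 genes, among 22180 genes with a probe of their own. Krt5, the keratin that pairs with Krt14, was the exception, because its probe is also assigned to Krt6a, and it is not analysed here. All 34 genes passed the filter on dim genes, a mean log2 signal of 4.06 that separates the lowest 25% of genes, and 16635 genes in all were tested.

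One group of 4 tumours, labelled NeuNT/H1074R, carried NeuNT together with mutant p110α, the catalytic part of the lipid kinase PI3K, which acts downstream of growth factor receptors. The other group of 4 tumours was labelled NeuNT and carried NeuNT alone, so NeuNT was common to all 8 tumours. Neu is ErbB2 of rodents, a growth factor receptor, and the series title writes the mutation as H1047R, whereas the sample labels have H1074R. No treatment was given. The labels do not state the promoter that drives the transgenes, the age of the mice or whether each tumour came from its own mouse. A p-value therefore covers only the spread among these tumours, which may be partly technical. Values are log2 array signals, 1 array per tumour, and array medians lay between 4.81 and 4.87. Precision is set by how few arrays there are, and signals of different genes are not compared with each other.

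The mammary duct has an inner luminal layer and an outer basal layer, whose myoepithelial cells lie on the basement membrane and contract to eject milk when oxytocin reaches them. Basal cells are recognised by their keratins and by the transcription factor p63, they attach to laminin through integrins and hemidesmosomes, and as myoepithelial cells they also build a smooth muscle type of contractile apparatus, which is largely switched on by serum response factor and its coactivators. Fibroblasts, pericytes and vascular smooth muscle share part of the contractile genes, and squamous epithelium shares the keratins, so in bulk tumour RNA a change in the number of such cells and a change in the RNA of each cell cannot be told apart. The 34 genes were divided by role into 4 basal keratin and p63 genes, 9 adhesion and basement membrane genes, 13 contractile genes, and 8 receptors, regulators and surface genes.

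The programme did not behave as one unit in these tumours. The keratins, p63 and the hemidesmosomal laminin and collagen genes had the same 4 highest tumours, NeuNT/H1074R replicates 1 and 3 and NeuNT replicates 2 and 4, so both genotypes were on either side. Krt17 was below its mean over the 8 tumours in one of these, NeuNT replicate 2. Most contractile genes were high in a single tumour, NeuNT replicate 2. The integrins varied less between tumours. No gene of the programme passed the test between genotypes in the fit across all genes.

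Promoter sequences are shown for 3 contractile genes whose signal was highest in NeuNT replicate 2, and for Krt14, which followed the keratin pattern. Each window runs 5′ to 3′ on the transcribed strand, from 250 bases before the annotated start to 50 bases from it, as given by RefSeq for GRCm38.p6. Capitals mark a CArG box, the site bound by serum response factor, either exact or with 1 of its letters changed, a relaxed search that was added after the exact one had been seen. Myl9 lies at chr2:156775214-156775513, plus strand, Acta2 at chr19:34255324-34255623, minus strand, Cnn1 at chr9:22099003-22099302, plus strand and Krt14 at chr11:100205981-100206280, minus strand.
Myl9: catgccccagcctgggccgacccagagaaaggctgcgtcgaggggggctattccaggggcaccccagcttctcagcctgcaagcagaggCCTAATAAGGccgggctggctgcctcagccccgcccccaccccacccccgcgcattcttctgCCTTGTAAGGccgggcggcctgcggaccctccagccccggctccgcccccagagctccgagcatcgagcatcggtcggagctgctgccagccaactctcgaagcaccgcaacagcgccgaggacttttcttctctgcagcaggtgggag
Acta2: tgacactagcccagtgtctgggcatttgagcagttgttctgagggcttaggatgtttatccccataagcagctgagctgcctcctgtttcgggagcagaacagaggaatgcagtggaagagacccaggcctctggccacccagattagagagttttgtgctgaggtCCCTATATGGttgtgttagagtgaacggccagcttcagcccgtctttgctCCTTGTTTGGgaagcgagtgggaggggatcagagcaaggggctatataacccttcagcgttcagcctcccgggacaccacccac
Cnn1: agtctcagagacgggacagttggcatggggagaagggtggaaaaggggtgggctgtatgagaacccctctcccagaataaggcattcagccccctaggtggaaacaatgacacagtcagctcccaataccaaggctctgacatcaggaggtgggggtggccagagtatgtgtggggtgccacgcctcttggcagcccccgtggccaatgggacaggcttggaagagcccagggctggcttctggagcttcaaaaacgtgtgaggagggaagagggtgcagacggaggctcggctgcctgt
Krt14: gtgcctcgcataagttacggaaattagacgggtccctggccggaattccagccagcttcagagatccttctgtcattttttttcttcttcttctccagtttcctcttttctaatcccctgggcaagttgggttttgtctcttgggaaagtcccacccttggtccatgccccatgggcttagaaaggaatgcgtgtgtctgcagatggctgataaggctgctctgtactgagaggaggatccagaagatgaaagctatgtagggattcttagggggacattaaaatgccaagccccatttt

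The Myl9 window held an exact CArG box, CCTAATAAGG, at position −161 counted from the first transcribed base, and a second box with a changed letter at −99. In the Acta2 window there were 0 exact boxes and 2 with a changed letter, CCCTATATGG and CCTTGTTTGG. Neither Cnn1 nor Krt14 had a box of either kind in these letters. Windows were found for 10 contractile genes, 11 windows in all, of which 1 held an exact box and 6 held one with a letter changed. Among all 32851 windows of the table the shares were 1.63% and 19.87%. Of 9 windows of the adhesion class, 0 held an exact box and 3 held one with a letter changed. The 2 windows of the keratin and p63 class held 0 of either kind. Of 11 windows of the receptors, regulators and surface genes, 2 held an exact box and 0 held one with a letter changed. Both exact boxes were in the windows that the RefSeq table gave for Fhl2, a LIM domain cofactor. The motif TATAAA, on either strand, was in 1 of the 11 contractile windows and in 13.62% of all windows, and CACCC, on either strand, was in 8 of the 11 and in 57.52% of all. These matches describe letters in the windows, not binding.

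Among the keratins, Krt14, the type I keratin of basal cells, had log2 signals of 12.49, 6.71, 11.73 and 7.14 in NeuNT/H1074R replicates 1 to 4, against 5.36, 9.37, 7.99 and 12.04 in NeuNT replicates 1 to 4. The highest and the lowest tumour were 7.12 log2 units apart, a range wider than in 99.9% of tested genes. Krt17, a keratin of basal and stressed epithelium, had 12.45, 6.12, 12.19 and 6.81 in NeuNT/H1074R tumours, against 6.55, 7.39, 5.06 and 10.77 in NeuNT tumours. Here the NeuNT/H1074R tumours fell into a high and a low pair, and NeuNT replicate 2 lay only 0.57 above the nearest of the low tumours. Krt15, a keratin of basal cells of stratified epithelium, had 7.26, 4.42, 9.16 and 4.55 in NeuNT/H1074R tumours, against 3.97, 9.47, 4.16 and 6.18 in NeuNT tumours. Its highest tumour was NeuNT replicate 2, which was not the highest for Krt14 or Krt17. Trp63, which encodes p63, had 7.64, 6.11, 7.65 and 5.59 in NeuNT/H1074R tumours, against 5.55, 8.44, 4.87 and 8.44 in NeuNT tumours. For all 4 of these genes the 4 highest tumours were the same ones, NeuNT/H1074R replicates 1 and 3 and NeuNT replicates 2 and 4, which was so for 3.65% of all tested genes.

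Because high and low tumours were found in both genotypes, the groups overlapped for all 4 keratin and p63 genes. Krt17 averaged 9.39 ± 3.39 in NeuNT/H1074R tumours and 7.44 ± 2.42 in NeuNT tumours (SD, n = 4 each), a log2 difference of 1.95 ± 1.75 (SE). The Krt17 difference became 0.93 when NeuNT/H1074R replicate 1 was left out and 3.06 when NeuNT replicate 4 was. Krt14 differed by 0.83 ± 1.72 (SE), Krt15 by 0.40 ± 1.44 (SE) and Trp63 by −0.08 ± 0.91 (SE). None passed the test (limma, adjusted p between 0.978 and 0.997). The 95% interval of the Krt14 difference ran from −3.11 to 4.76, so differences of several log2 units in either direction were not excluded. The median of the 4 differences was 0.61, which became −0.27 when NeuNT replicate 1 was left out and 1.40 when NeuNT/H1074R replicate 2 was.

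**Figure D1:**
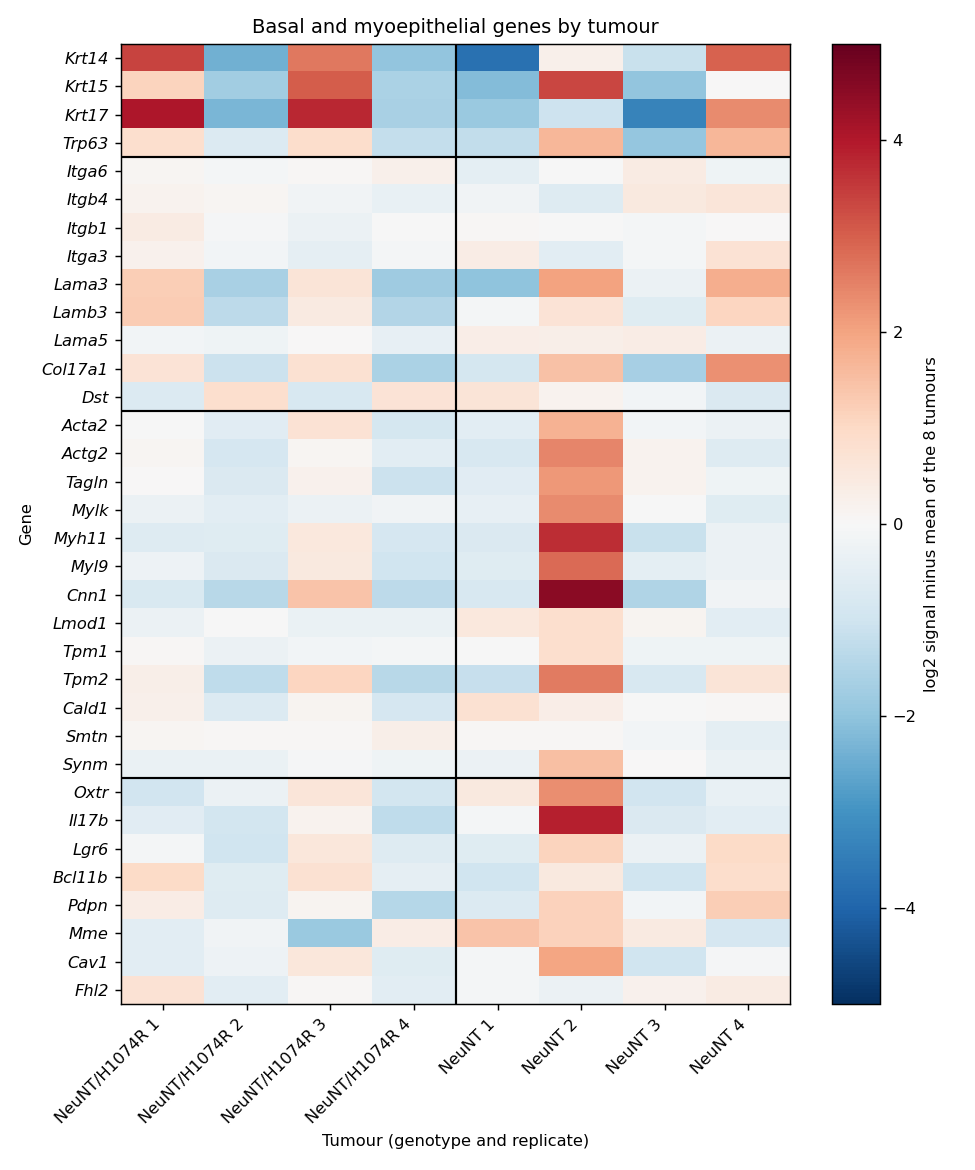
Log2 signal of each of the 34 genes (rows, ordered by role) in each tumour (columns, NeuNT/H1074R then NeuNT), minus the gene's mean over the 8 tumours, as colour from blue (lower) to red (higher). Krt14, Krt15, Krt17, Trp63, Lama3, Lamb3 and Col17a1 were high in NeuNT/H1074R replicates 1 and 3 and in NeuNT replicates 2 and 4, with Krt14 and Krt15 near their mean in 1 of these, and Krt17 below its mean in NeuNT replicate 2, while most contractile genes were high in NeuNT replicate 2.

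Among the 9 adhesion genes, 3 had a range over the 8 tumours at or above the 95th percentile of tested genes. These were Lama3, Col17a1 and Lamb3. Lama3, a chain of the laminin that anchors hemidesmosomes, had 8.20, 5.32, 7.58 and 5.19 in NeuNT/H1074R tumours, against 4.96, 8.95, 6.66 and 8.79 in NeuNT tumours. Col17a1, the transmembrane collagen of hemidesmosomes, had 7.09, 5.33, 7.18 and 4.82 in NeuNT/H1074R tumours, against 5.52, 7.89, 4.75 and 8.70 in NeuNT tumours. Lamb3, another chain of the same laminin, had 9.10, 6.53, 8.30 and 6.36 in NeuNT/H1074R tumours, against 7.71, 8.52, 7.23 and 8.89 in NeuNT tumours. These 3 genes of the 9 had the same 4 highest tumours as the keratins and p63. The log2 differences between genotypes were −0.77 ± 1.03 (SE) for Lama3, −0.61 ± 0.94 (SE) for Col17a1 and −0.52 ± 0.65 (SE) for Lamb3 (limma, adjusted p = 0.979 for Col17a1 and 0.978 for the other two). Lama3 stood at −0.23 without NeuNT replicate 2 and at −1.56 without NeuNT replicate 1, and Col17a1 stood at 0.05 without NeuNT replicate 4. Lamb3 stood at −1.03 without NeuNT/H1074R replicate 1 and at −0.11 without NeuNT/H1074R replicate 4.

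The integrins of the same attachment structures had narrower ranges and did not share the 4 highest tumours of the keratins. Itga6, the laminin-binding integrin chain that pairs with Itgb4 in hemidesmosomes, had 10.11, 9.91, 10.09 and 10.27 in NeuNT/H1074R tumours, against 9.55, 9.99, 10.45 and 9.82 in NeuNT tumours. Itgb1, the common beta chain, spanned 10.04 to 10.72 in NeuNT/H1074R tumours and 10.24 to 10.40 in NeuNT tumours, a range over the 8 tumours of 0.67 against a median of 0.74 for all tested genes. Itgb4 spanned 8.04 to 8.57 in NeuNT/H1074R tumours and 7.75 to 8.9985 in NeuNT tumours. Its lowest value was in NeuNT replicate 2 and its highest in NeuNT replicate 4. Trp63 was 8.44 in both of these tumours, and Lama3 was 8.95 and 8.79. Itga3, a partner of Itgb1 in laminin binding, had 8.93, 8.55, 8.27 and 8.62 in NeuNT/H1074R tumours, against 9.08, 8.17, 8.60 and 9.43 in NeuNT tumours. NeuNT replicate 2 was the lowest tumour here too. The ranges of Itga6, Itgb4 and Itga3 over the 8 tumours, 0.90, 1.25 and 1.26, were above the median of 0.74. Lama5, a laminin chain of most epithelial basement membranes, had 7.37, 7.29, 7.49 and 7.09 in NeuNT/H1074R tumours, against 7.82, 7.79, 7.87 and 7.20 in NeuNT tumours. It had the smallest p of all 34 genes, at a log2 difference of −0.36 ± 0.18 (SE), and failed the test (limma, unadjusted p = 0.0775, adjusted p = 0.978), and only NeuNT replicate 4 lay among the NeuNT/H1074R values. Dst, a linker between keratins and hemidesmosomes, ran against the keratins, with 6.80, 8.33, 6.67 and 8.16 in NeuNT/H1074R tumours and 8.11, 7.64, 7.34 and 6.75 in NeuNT tumours. Its 3 lowest tumours, NeuNT/H1074R replicates 1 and 3 and NeuNT replicate 4, were the 3 with the highest Krt14. RefSeq gives Dst more than 1 start, and no source used here states which Dst transcripts the probe reads. Over the 9 adhesion genes 3 differences were above 0 and 6 below, with a median of −0.22, which moved to −0.019 when NeuNT replicate 4 was omitted and to −0.34 when NeuNT/H1074R replicate 1 was.

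Most of the contractile genes stood out in NeuNT replicate 2. Cnn1, the actin-binding protein calponin of smooth muscle, had 6.24, 5.62, 8.42 and 5.71 in NeuNT/H1074R tumours, against 6.19, 11.53, 5.50 and 6.83 in NeuNT tumours. Myh11, the smooth muscle myosin heavy chain, had 6.46, 6.504, 7.63 and 6.28 in NeuNT/H1074R tumours, against 6.38, 10.79, 6.003 and 6.80 in NeuNT tumours. In both genes NeuNT replicate 2 was over 3 log2 units above the next tumour, which was NeuNT/H1074R replicate 3. Tpm2, a tropomyosin, had 6.93, 5.36, 7.69 and 5.23 in NeuNT/H1074R tumours, against 5.47, 9.24, 5.83 and 7.29 in NeuNT tumours. Its 4 highest tumours were those of the keratins, with a gap of 1.11 to the fifth, as also held for Myl9 and Cnn1 with gaps of 0.19 and 0.05.

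The 5 further contractile genes that follow were chosen for description after their values were seen. Acta2, smooth muscle actin, had 10.52, 9.96, 11.23 and 9.64 in NeuNT/H1074R tumours, against 9.9975, 12.27, 10.37 and 10.21 in NeuNT tumours. Myl9, the regulatory light chain of smooth muscle myosin, had 8.60, 8.14, 9.35 and 7.84 in NeuNT/H1074R tumours, against 8.24, 11.69, 8.36 and 8.55 in NeuNT tumours. Tagln, transgelin, had 8.21, 7.48, 8.43 and 7.12 in NeuNT/H1074R tumours, against 7.62, 10.35, 8.39 and 7.99 in NeuNT tumours. In each of the 3 NeuNT replicate 2 was highest and NeuNT/H1074R replicate 3 came next. Mylk, the kinase that activates this myosin, spanned 5.83 to 6.18 in NeuNT/H1074R tumours and had 5.96, 8.72, 6.34 and 5.76 in NeuNT tumours. Actg2, a second smooth muscle actin, spanned 6.56 to 7.51 in NeuNT/H1074R tumours and had 6.60, 9.86, 7.59 and 6.75 in NeuNT tumours. The muscle actin proteins are near-identical, and no source used here states how far the probes of Acta2 and Actg2 tell their transcripts apart.

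Of the 13 contractile genes, 11 were highest in NeuNT replicate 2, as were 15.7% of all tested genes, and in 9 of the 13 its lead over the next tumour was at least 1 log2 unit. The intermediate filament gene Synm was among them, at 7.42 in that tumour, with 5.57 to 5.85 in NeuNT/H1074R tumours and 5.59 to 5.92 in the other NeuNT tumours. Tpm1, another tropomyosin, led by 0.80 there, with 9.24 against 8.10 to 8.43 in NeuNT/H1074R tumours. Lmod1, which nucleates actin filaments, had 5.88, 6.18, 5.86 and 5.83 in NeuNT/H1074R tumours, against 6.70, 7.001, 6.32 and 5.66 in NeuNT tumours, so the lead of NeuNT replicate 2 was only 0.30. Cald1, the actin-binding caldesmon, had 8.98, 8.06, 8.89 and 7.89 in NeuNT/H1074R tumours, against 9.49, 9.08, 8.71 and 8.80 in NeuNT tumours, and was highest in NeuNT replicate 1. Smtn, smoothelin, had 9.23, 9.20, 9.19 and 9.44 in NeuNT/H1074R tumours, against 9.22, 9.20, 8.98 and 8.65 in NeuNT tumours, and was the one contractile gene with a higher mean in NeuNT/H1074R.

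**Figure D2:**
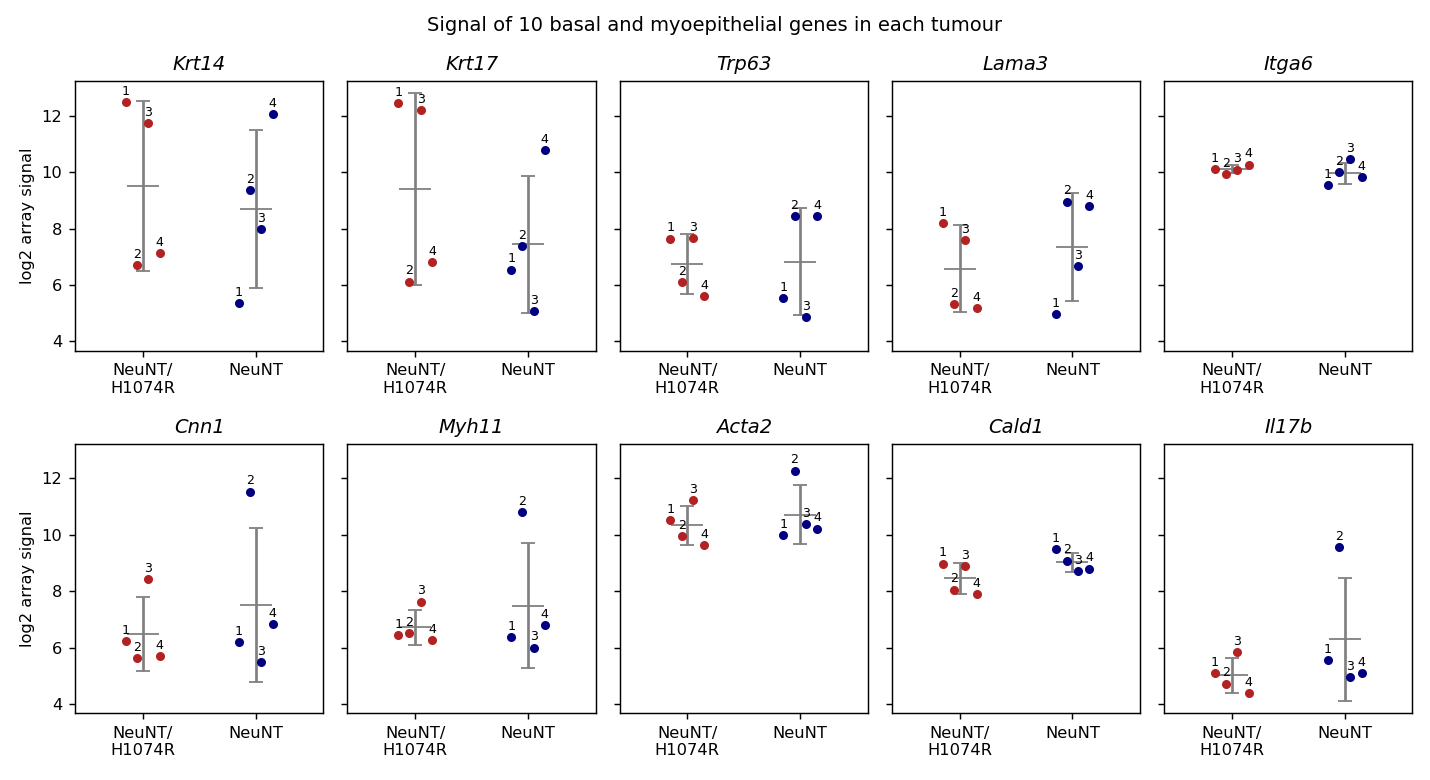
Log2 array signal of 10 genes in each tumour, NeuNT/H1074R (red) left of NeuNT (blue), with the replicate number above each point and the group mean ± SD (n = 4) in grey. Krt14, Krt17, Trp63 and Lama3 have high and low tumours in both genotypes, Itga6 lies between 9.55 and 10.45, and Cnn1, Myh11, Acta2 and Il17b peak in NeuNT replicate 2, at 11.53, 10.79, 12.27 and 9.55.

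Between genotypes, 12 of the 13 contractile genes had a lower mean in NeuNT/H1074R tumours and 1 a higher one, with a median log2 difference of −0.58, beside −0.0027 over all tested genes. None passed the test. Cald1 and Lmod1 had the smallest p of the 13, with differences of −0.57 ± 0.29 (SE) and −0.48 ± 0.27 (SE), and Smtn stood at 0.26 ± 0.15 (SE) (limma, adjusted p = 0.978 for each). Cnn1 differed by −1.01 ± 1.27 (SE), Myh11 by −0.78 ± 0.97 (SE), Tagln by −0.78 ± 0.58 (SE), Myl9 by −0.73 ± 0.75 (SE) and Acta2 by −0.38 ± 0.53 (SE). Most of the 13 differences rested on 1 tumour. Without NeuNT replicate 2 the median was 0.10 and 4 of the 13 genes were lower, with Cnn1 at 0.32, Myh11 at 0.32, Myl9 at 0.10, Acta2 at 0.14 and Tagln at −0.19. Cald1, Lmod1 and Smtn kept their direction there, at −0.55, −0.29 and 0.32.

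**Figure D3:**
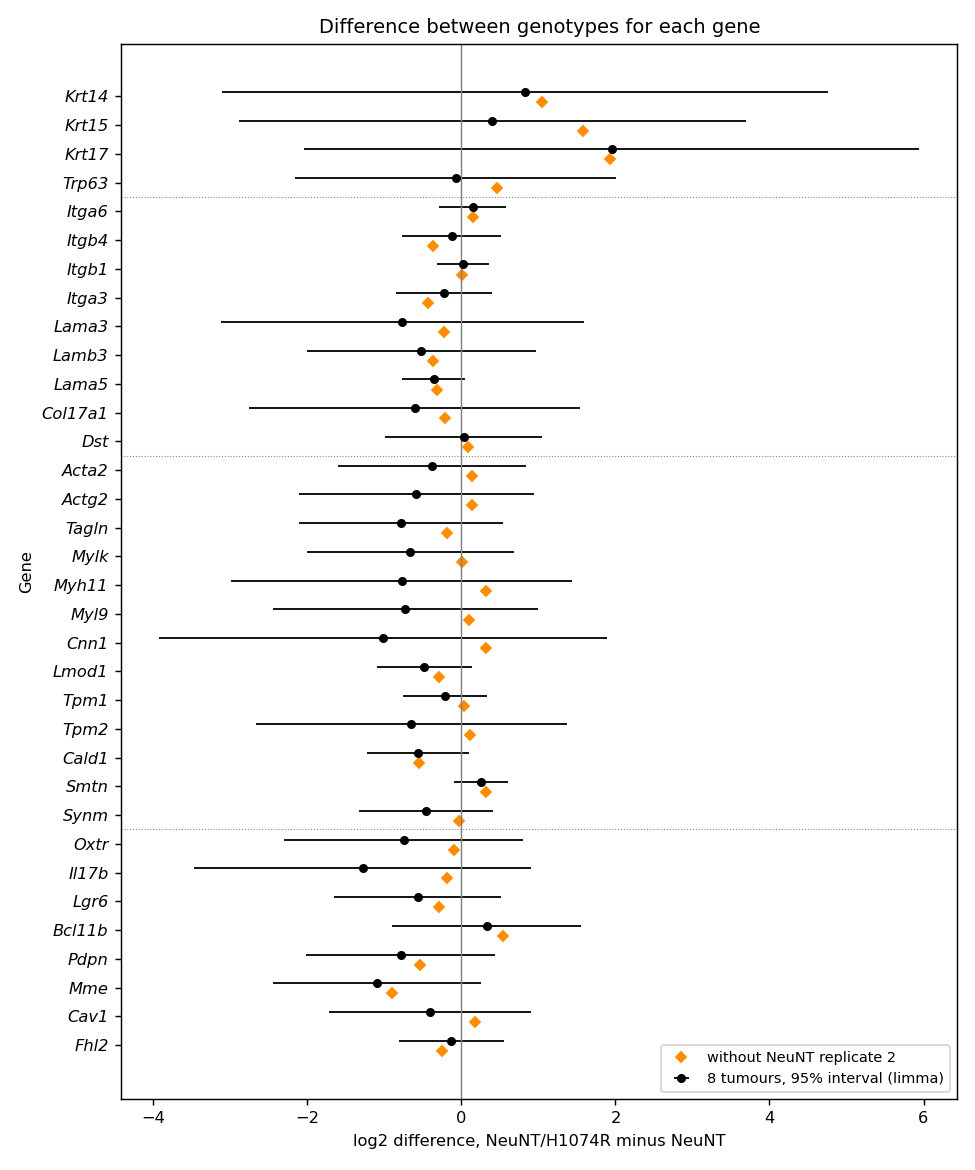
Log2 difference, NeuNT/H1074R minus NeuNT, for each of the 34 genes, with the 95% interval from limma over 8 tumours (black) and the value without NeuNT replicate 2 (orange). Every interval includes 0, and without that tumour the contractile median lies at 0.10 in place of −0.58.

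Among the receptors and regulators, Il17b, a cytokine gene, was also highest in NeuNT replicate 2. It had 5.10, 4.73, 5.83 and 4.41 in NeuNT/H1074R tumours, against 5.57, 9.55, 4.95 and 5.11 in NeuNT tumours. The lead of NeuNT replicate 2 was 3.72, the widest among the 34 genes. Oxtr, the oxytocin receptor through which myoepithelial cells are made to contract, had 5.62, 6.28, 7.19 and 5.66 in NeuNT/H1074R tumours, against 7.06, 8.89, 5.62 and 6.18 in NeuNT tumours. Cav1, the membrane scaffold caveolin, spanned 5.96 to 7.10 in NeuNT/H1074R tumours and reached 8.503 in NeuNT replicate 2, against 5.55 to 6.49 in the other NeuNT tumours. In both, NeuNT replicate 2 was highest and NeuNT/H1074R replicate 3 next.

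Pdpn, Bcl11b and Lgr6 instead had the 4 highest tumours of the keratins. Pdpn, the surface glycoprotein podoplanin, had 8.85, 7.81, 8.58 and 7.02 in NeuNT/H1074R tumours, against 7.77, 9.62, 8.33 and 9.69 in NeuNT tumours. Bcl11b, a zinc finger transcription factor of basal cells, spanned 4.86 to 6.43 in NeuNT/H1074R tumours and 4.46 to 6.34 in NeuNT tumours, with a gap of 0.91 between the fourth and the fifth tumour. Lgr6, a receptor for R-spondins, spanned 6.41 to 7.95 in NeuNT/H1074R tumours and 6.76 to 8.49 in NeuNT tumours.

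Mme, the surface peptidase also known as neprilysin, followed neither pattern. It had 8.77, 9.11, 7.43 and 9.69 in NeuNT/H1074R tumours, against 10.73, 10.44, 9.75 and 8.46 in NeuNT tumours, and 3 of the 4 NeuNT tumours lay above every NeuNT/H1074R tumour. Fhl2 spanned 6.96 to 8.22 in NeuNT/H1074R tumours and 7.21 to 7.90 in NeuNT tumours. Mme differed by −1.10 ± 0.59 (SE), Pdpn by −0.79 ± 0.54 (SE), Il17b by −1.28 ± 0.96 (SE) and Oxtr by −0.75 ± 0.68 (SE), and none passed (limma, adjusted p = 0.978 for each). Il17b stood at −0.19 and Oxtr at −0.10 without NeuNT replicate 2, whereas Mme stood at −0.90. Mme stood at −1.56 without NeuNT replicate 4 and at −0.66 without NeuNT/H1074R replicate 3. Of the 8 genes of this class, 7 were lower and 1 higher, with a median of −0.66, and of −0.22 without NeuNT replicate 2.

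Across all 34 genes, 0 were called at an adjusted p under 0.05, and the same fit called 0% of all tested genes. At an unadjusted p under 0.05 there were 0 of the 34, beside 3.82% of tested genes. Tumours of the genotypes did not overlap for 0 of the 34 genes, beside 1.59% of tested genes with higher and 1.1% with lower values in NeuNT/H1074R. In all, 26 of the 34 had a lower mean in NeuNT/H1074R and 8 a higher one, with a median of −0.47, and without NeuNT replicate 2 the genes with a lower mean were 16. The spread between tumours was wide: 20 of the 34 had a range over the 8 tumours at or above the 95th percentile of tested genes.

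Other genes of the same structures, from lists that the programme's 34 genes do not hold, were counted in the same way, and 0 passed. Among 15 further basal epithelial genes 6 were higher and 9 lower, with a median of −0.13. The 4 highest tumours of the keratins recurred in 6 of the 15, namely Perp, Dsc3, Cdh3, Jag2, Snai2 and Vsnl1. The desmosomal cadherin Dsc3 had the smallest p of this list, with a difference of −1.43 ± 1.0015 (SE) (limma, adjusted p = 0.978). Among 15 further hemidesmosome and basement membrane genes 6 were higher and 9 lower, with a median of −0.04, and 1 of them, Col7a1, an anchoring fibril collagen, had those 4 tumours highest. Among 20 further contractile genes and regulators 7 were higher and 13 lower, with a median of −0.06, and 8 were highest in NeuNT replicate 2. The filamin gene Flna had a difference of −0.66 ± 0.30 (SE) and the LIM domain gene Csrp1 one of −0.64 ± 0.30 (SE) (limma, adjusted p = 0.978 for each). Srf, the gene of serum response factor, spanned 7.91 to 8.43 in NeuNT/H1074R tumours and 8.21 to 8.42 in NeuNT tumours. Myocd, the gene of its coactivator myocardin, spanned 5.07 to 5.40 in NeuNT/H1074R tumours and 5.02 to 5.42 in NeuNT tumours. Both Myocd group means lay below 5.59, the median over all genes. The coactivator gene Mrtfa spanned 6.87 to 7.79 in NeuNT/H1074R tumours and 7.35 to 8.14 in NeuNT tumours. It was highest in NeuNT replicate 2, by 0.35. Mrtfb, another coactivator gene, spanned 8.30 to 8.76 in NeuNT/H1074R tumours and 7.94 to 8.67 in NeuNT tumours, and was highest in NeuNT/H1074R replicate 2.

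Markers of other cell types were set beside these patterns as the mean over each list of the log2 signal minus the gene's mean over the 8 tumours, so that 0 is the average tumour. On this scale the contractile genes reached 1.9965 in NeuNT replicate 2, with −0.64 to 0.30 in NeuNT/H1074R tumours and −0.35 to −0.26 in the other NeuNT tumours. The list of vascular smooth muscle and pericyte markers holds none of the contractile genes, part of which vascular smooth muscle shares. Of its 10 markers, 9 passed the filter on dim genes and Higd1b did not. They ran from −0.13 to 0.30 in NeuNT/H1074R tumours and from −0.32 to 0.18 in NeuNT tumours, and NeuNT replicate 2, at 0.18, lay below NeuNT/H1074R replicate 1. NeuNT replicate 2 was the highest tumour for 2 of the 9, Rgs5 at 10.12 and Ndufa4l2 at 8.42, by 0.22 and 0.21 over the next tumour. NeuNT/H1074R replicate 1 was the highest for 4 of the 9, among them the pericyte receptor gene Pdgfrb. Of 10 fibroblast markers, which ran from −0.70 to 0.22 in NeuNT/H1074R tumours and from −0.55 to 0.83 in NeuNT tumours, 4 were highest in NeuNT replicate 2 (Pdgfra, Dcn, Lum and Fbln1), and of 8 endothelial markers, from −0.17 to 0.08 in NeuNT/H1074R tumours and from −0.39 to 0.49 in NeuNT tumours, 7 were. The matrix proteoglycan gene Dcn had 11.88 in NeuNT replicate 2, which was 1.76 above the next tumour, and the matrix gene Fbln1 led there by 0.99. Of the 10 fibroblast markers, 5 were highest in NeuNT replicate 3 instead, namely Col1a1, Col1a2, Col3a1, Fap and Mfap5. Between genotypes the pericyte list had 6 genes higher and 3 lower with a median of 0.20, the fibroblast list 0 higher and 10 lower with a median of −0.29, and the endothelial list 2 higher and 6 lower with a median of −0.10. Without NeuNT replicate 2 the median was 0.27 for pericyte, −0.14 for fibroblast and 0.014 for endothelial markers. The part of these cells, vascular smooth muscle among them, in the contractile signal of that tumour was not tested.

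The keratin pattern was accompanied by other markers in single tumours. The 4 keratin and p63 genes had list means of 2.35, −1.78, 2.57 and −1.59 in NeuNT/H1074R replicates 1 to 4, against −2.26, 1.05, −2.09 and 1.74 in NeuNT replicates 1 to 4. Of 12 suprabasal and cornified keratinocyte markers, 11 were tested and Sprr3 was dim. All 11 were highest in NeuNT replicate 4, where the list mean was 3.21, with −0.64 to 0.46 in NeuNT/H1074R tumours and −1.08 to −0.56 in the other NeuNT tumours. Skeletal muscle markers, 9 of 10 tested with Mylpf dim, stood at 1.58 and 1.16 in NeuNT/H1074R replicates 1 and 3, at −0.32 and −0.44 in replicates 2 and 4, and at −0.74 to −0.07 in NeuNT tumours. Luminal markers, 11 of 12 measured, ran from −0.38 to 0.15 in NeuNT/H1074R tumours and from −0.35 to 0.54 in NeuNT tumours. The luminal keratin Krt8 spanned 10.19 to 10.89 in NeuNT/H1074R tumours and 9.78 to 10.55 in NeuNT tumours. Krt19, another keratin of that list, had 11.51, 9.27, 11.52 and 7.51 in NeuNT/H1074R tumours, against 8.85, 10.95, 5.37 and 9.26 in NeuNT tumours, so its 3 highest tumours were among the 4 of the basal keratins. Foxa1, a luminal transcription factor, spanned 5.53 to 8.53 in NeuNT/H1074R tumours and reached 11.74 in NeuNT replicate 2, which was 3.20 above the next tumour. The luminal list mean was also highest in that tumour, at 0.54, with 0.15 in the next, NeuNT/H1074R replicate 2. Its genes did not rise together there. NeuNT replicate 2 was the highest tumour for 2 of the 11 luminal markers and the lowest for 4, namely Epcam, Cldn3, Elf5 and Ehf. All 9 skeletal muscle genes were higher in NeuNT/H1074R, with a median of 1.06, which was 0.68 without NeuNT/H1074R replicate 1. The groups did not overlap in 4 of the 9, beside the 1.59% of all tested genes that were higher without overlap. The suprabasal list had 1 gene higher and 10 lower with a median of −0.31 that turned to 0.60 without NeuNT replicate 4, and the luminal list 5 higher and 6 lower with a median of −0.06. No gene of these lists passed the test. The part of these cells in the keratin values, and in the values of NeuNT replicate 2, was not tested.

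**Figure D4:**
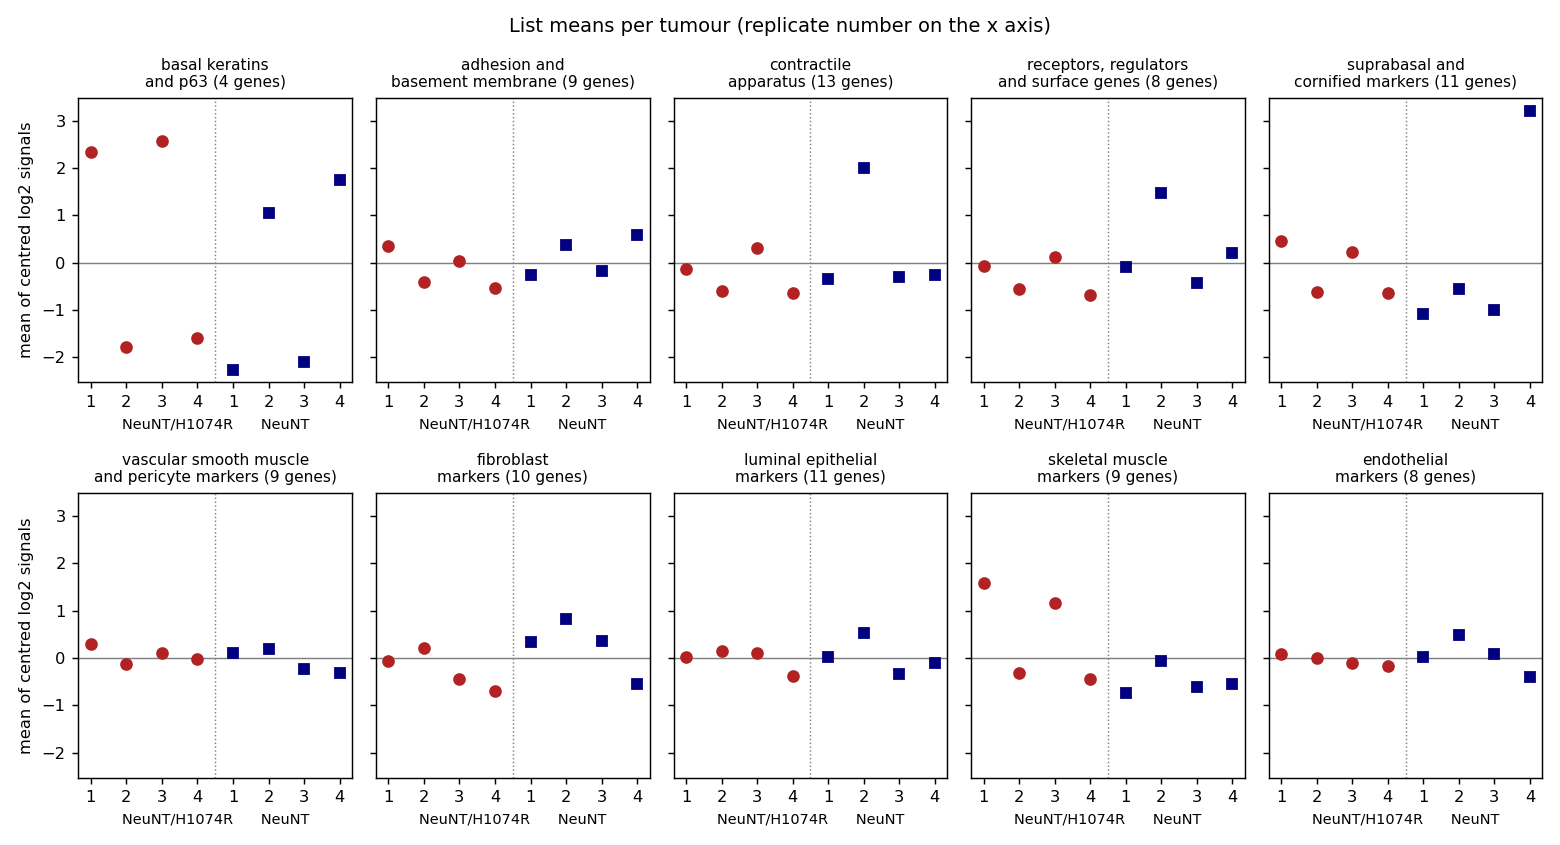
Mean over each list of the log2 signal minus the gene's mean over the 8 tumours, by tumour, with NeuNT/H1074R replicates 1 to 4 (red circles) left of NeuNT replicates 1 to 4 (blue squares). Contractile genes peak in NeuNT replicate 2 at 1.9965, suprabasal markers in NeuNT replicate 4 at 3.21, and keratin and p63 genes lie above 1 in 2 tumours of each genotype and below −1.5 in the other 2.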

How the data were processed

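The authors deposited 1 table of log2 signals, holding 41345 probes and a column for each tumour. The tools named by the submitters' processing notes are Affymetrix Expression Console and Transcriptome Analysis Console. No source used here gives their versions or how background and normalization were handled, and the log2 scale was taken from the values, 0.887 to 13.64. Probes were named from the platform annotation, where 23521 had 1 gene symbol, 1814 several and 16010 were unlisted. Of the 22180 genes, 1082 had several probes. Genes with a mean in the lowest 25% were left out.

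The genotypes were compared over 16635 genes by limma (version 3.58.1, under R version 4.3.3), using lmFit and a trended eBayes, as NeuNT/H1074R minus NeuNT, two-sided, with no covariate, and adjusted by Benjamini-Hochberg over all tested genes at 0.05. The script was tested on simulated data. Alternatives omitted the tumours one at a time and changed the normalization, the filter, the probe choice, the variance model and the array weights. Motifs were counted in 32851 RefSeq promoter windows of GRCm38.p6. Plots were drawn with matplotlib 3.10.9. The genes and lists were chosen with earlier results of these data known. Values in every tumour were given, per class, for the 3 genes of smallest p and the 3 of widest range, and for others chosen after their values were seen.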

Additional observations from a re-analysis of the deposited data

Results flagged for a closer look

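In a group of 4 tumours, a single tumour was marked when its gap to the nearest other tumour was a larger share of the group's whole range than Dixon's 95% critical value. Chance marks about 1 group in 20. Among the 68 groups of the 34 genes 9 were marked, and among the 8 groups of the 4 list means 1 was. The groups are not independent, because all genes come from the same tumours. The share marked over all tested genes was not computed, so the 9 are not read as an excess.

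NeuNT replicate 2 stood apart from the other NeuNT tumours for Acta2 at 12.27, Myh11 at 10.79, Myl9 at 11.69, Tpm1 at 9.24 and Il17b at 9.55, all log2 signals. It also stood apart for the mean of the 13 contractile genes, at 1.9965. NeuNT replicate 4 stood apart with the lowest Lama5, at 7.20. Within NeuNT/H1074R, replicate 3 stood apart for Myh11 at 7.63, replicate 2 for Lmod1 at 6.18 and replicate 4 for Smtn at 9.44. The next values in that group were 6.504 for Myh11, 5.88 for Lmod1 and 9.23 for Smtn, so the last gaps were small.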

How the results depend on the processing

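With 4 tumours a group, the wide spread of the keratin and contractile genes limited what could be detected. The count of genes called was 0 of the programme in every setting run. The alternatives, apart from leaving out a tumour, reversed Krt14 (−0.045) and Krt15 (−0.18) with array weights and Itgb1 (−0.0017) with arrays centred on their medians. With array weights the median difference of the keratin and p63 genes also changed sign, from 0.61 to −0.12. Genes without overlap numbered 1 with quantile normalization and 1 with the mean of all probes, Smtn in both. Leaving out each tumour gave 0 to 3, the 3 being Lama5, Lmod1 and Mme, all lower, without NeuNT replicate 4. An unadjusted p under 0.05 was reached by those 3 genes in that same fit, and by Cald1 with array weights and without NeuNT/H1074R replicate 1. The causes were not tested.

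Over the fits that left out a tumour, the differences that reversed ranged from −0.28 to 1.94 for Krt14, −0.54 to 1.58 for Krt15, −0.73 to 0.46 for Trp63, −0.36 to 0.052 for Itgb4, −0.11 to 0.12 for Itgb1, −1.26 to 0.054 for Col17a1 and −0.25 to 0.30 for Dst. They ranged from −0.67 to 0.14 for Acta2, −0.95 to 0.13 for Actg2, −0.98 to 0.013 for Mylk, −1.27 to 0.32 for Myh11, −1.05 to 0.10 for Myl9, −1.68 to 0.32 for Cnn1, −0.32 to 0.032 for Tpm1 and −1.15 to 0.11 for Tpm2. They ranged from −0.81 to 0.18 for Cav1 and −0.40 to 0.021 for Fhl2. Among the other lists, leaving out a tumour gave medians of −0.49 to 0.03 for other basal genes, −0.12 to 0.12 for other hemidesmosome genes, −0.11 to 0.03 for other contractile genes, −0.14 to 0.12 for luminal and −0.21 to 0.01 for endothelial markers, all of which changed sign. No paired analysis was possible because the genotypes have no tumour number in common.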
